A study of Rattus norvegicus with 9 samples.

Results

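Neutrophil marker genes were followed in rat liver across 3 groups of 3 arrays. The list held 9 genes, S100a8, S100a9, Cybb, Alox5ap, Itgam, Itgb2, Ncf1, Mmp8 and Mpo. Members were taken as all probe sets whose platform gene symbol was on the list, which gave 7 of the 15923 probe sets on the array, 1 each for 7 genes. No probe set carried the symbol Itgb2 or Mpo, so those 2 genes are not analysed here. The gene Lcn2 was kept out of the list because hepatocytes make it too. Total RNA of whole liver came from Burn-CLP, Sham-CLP and Sham-Sham rats. By their names the first group had a burn followed by CLP, the next had a sham procedure followed by CLP, and the Sham-Sham group, labelled as the control, had a sham procedure in place of both. CLP is not spelled out in the labels. In rodent work it usually stands for cecal ligation and puncture, which spills gut bacteria into the abdomen. Strain, sex, age and the time of sampling are not given in the sources used here, nor is it said whether the arrays of a group came from separate rats, so p-values speak of the variation among these 9 arrays alone, part or all of it possibly technical.

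Neutrophils are short-lived white blood cells that leave the blood for infected or injured tissue, and in abdominal infection they gather in the liver's sinusoids. They stick to vessel walls through beta-2 integrins, kill microbes with oxidants made by the NADPH oxidase and with stored granule proteins, and call in further cells with leukotriene B4. S100a8 and S100a9 encode the 2 chains of calprotectin, a calcium- and zinc-binding protein that is very abundant in neutrophil cytosol. Several of the 9 genes are also used by monocytes and macrophages, among them S100a8, S100a9, Cybb, Ncf1, Alox5ap, Itgam and Itgb2. In RNA from whole liver, more cells of a type and more RNA per cell cannot be told apart.

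S100a9 was the 1 marker of the 6 tested that passed the test, and only between Burn-CLP and Sham-Sham liver. Its signal was higher on every Burn-CLP array than on every Sham-Sham array, with a fitted fold of 6.95. With 2 Sham-Sham arrays below the detection floor, that fold depends on where the floor lies. S100a9 no longer passed when Burn-CLP 2, Sham-Sham 1 or Sham-Sham 2 was left out. The other 5 tested markers did not pass in any comparison. S100a8, Alox5ap and Cybb had positive differences between Burn-CLP and Sham-Sham liver, while Ncf1 and Mmp8 had differences below 0. The 95% intervals of Cybb, Ncf1 and Mmp8 held 0. Itgam was below the detection floor on 8 of 9 arrays. The estimates thus differed in size and sign among the measured markers, though no test between markers was run. The list is described gene by gene.

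Each value is an array signal after quantile normalization, a step that gives all 9 arrays the same distribution. Signals under 64.3, the 20th percentile of all values, were set to that floor before taking log2, and their order below it carries no meaning. Probe sets above the floor on 3 or more of the 9 arrays were tested. Differences are on the log2 scale, with the standard error (SE) of a limma fit of all 9 arrays, and p-values were adjusted by the Benjamini-Hochberg method over all 13535 tested probe sets with a threshold of 0.05. Sham-Sham 1 stood apart from the other arrays, with a mean correlation of 0.89 with them, against 0.922 for Burn-CLP 2 and 0.935 to 0.949 for the remaining 7. The 3'/5' signal ratios of the Gapdh controls lay between 0.991 and 1.12 in Burn-CLP, 1.19 and 1.46 in Sham-CLP and 1.12 and 1.32 in Sham-Sham. Those of the beta-actin controls lay between 1.16 and 1.77 in Burn-CLP, 1.15 and 1.26 in Sham-CLP and 1.24 and 1.68 in Sham-Sham, and the part of RNA quality in the results was not tested. The labelled tissue matched its markers, since all 11 hepatocyte genes on the array were above the floor on every array.

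S100a9, the calprotectin chain with the longer tail (probe set 1387125_at), read 238, 788 and 662 on Burn-CLP arrays 1 to 3 and 166, 203 and 252 on the Sham-CLP arrays. Of the Sham-Sham arrays, numbers 1 and 2 were below the floor and number 3 read 89.2. Both CLP groups lay wholly above the Sham-Sham arrays, whereas Burn-CLP 1 fell inside the Sham-CLP range. Between Burn-CLP and Sham-Sham liver the log2 difference was 2.80 ± 0.40 (SE, n = 3 per group, 95% interval 1.89 to 3.70, limma adjusted p = 0.0239). Because Sham-Sham 1 and 2 were set to the floor, the size of this difference depends on where the floor lies, and was 2.16 with a floor at the 30th percentile and 3.61 with one at the 10th.

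**Figure D1:**
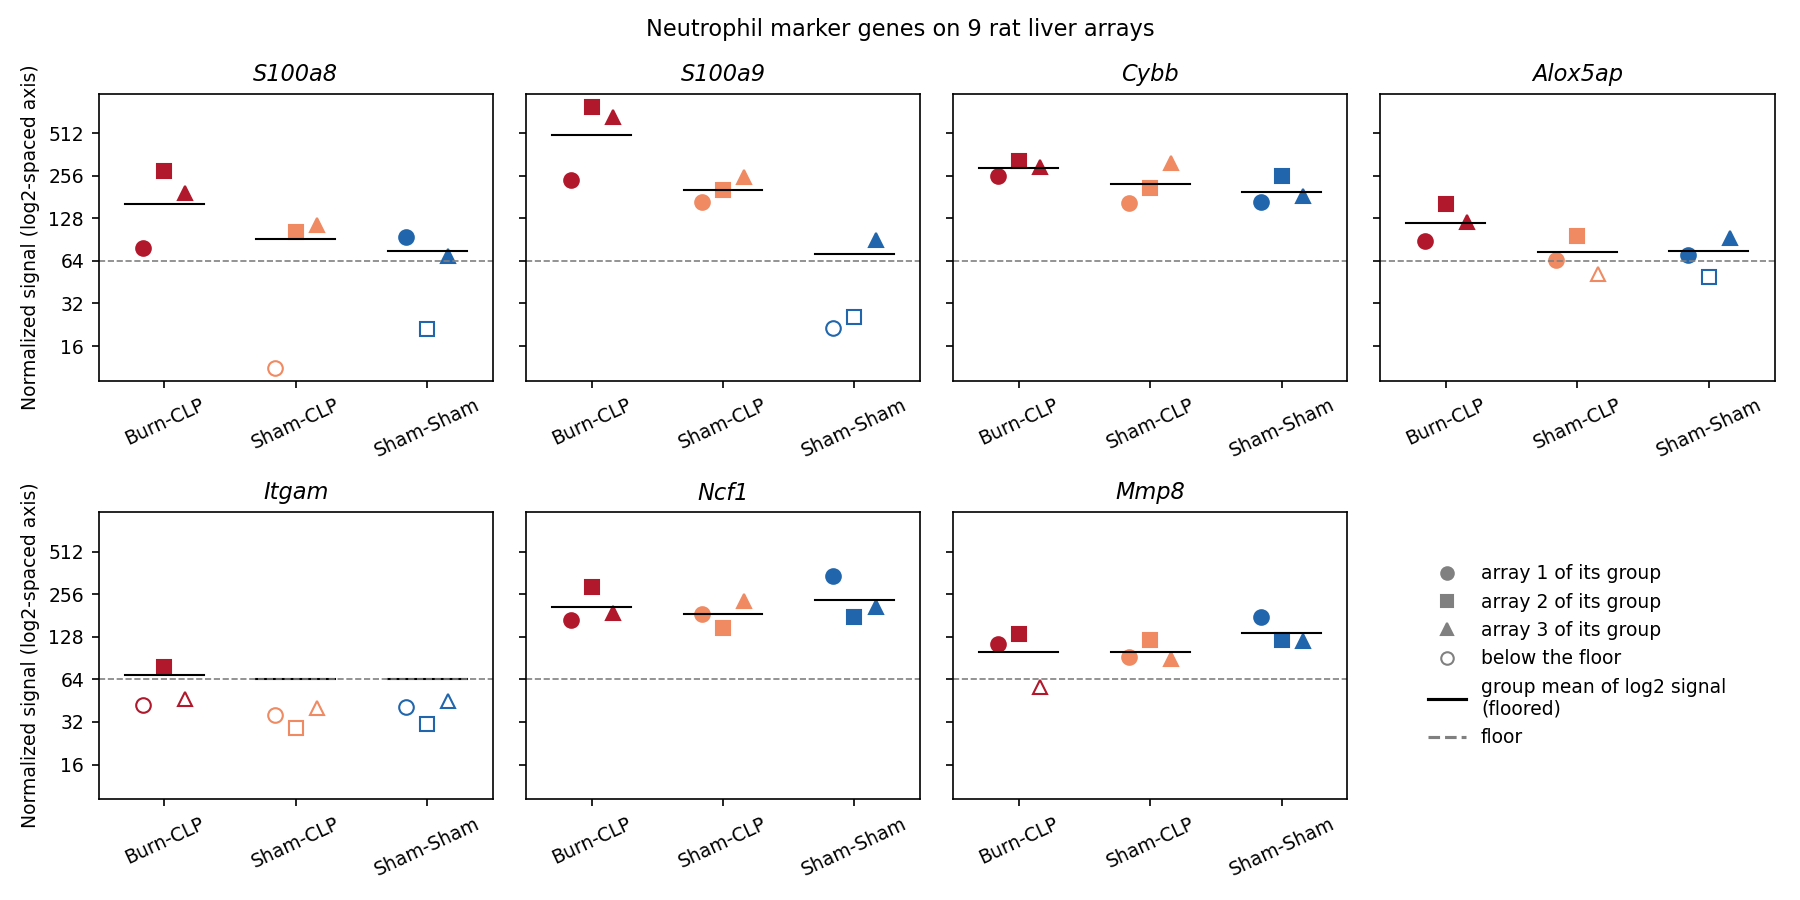
Normalized signal of each marker on the 9 arrays, on a log2-spaced axis, with Burn-CLP, Sham-CLP and Sham-Sham from left to right. The marker shape gives the array number, open symbols lie below the floor (dashed line at 64.3), and bars are group means of the floored log2 signal. S100a9 shows both CLP groups above all Sham-Sham arrays, and array 2 is the highest Burn-CLP array in all 7 panels.

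Between Sham-CLP and Sham-Sham liver S100a9 differed by 1.51 ± 0.40 (95% interval 0.60 to 2.42), which did not pass in the limma fit (adjusted p = 0.295). Its direct difference between Burn-CLP and Sham-CLP was 1.29 ± 0.40 (95% interval 0.38 to 2.20, limma adjusted p = 0.406). The order of the group levels was thus Burn-CLP, Sham-CLP, Sham-Sham, and neither pair of neighbours in that order passed the test. In the F test over the 3 groups, S100a9 had an adjusted p of 0.058. Comparisons with the same Sham-Sham arrays are not independent of each other.

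The call for S100a9 between Burn-CLP and Sham-Sham liver depended on which arrays were kept. Its log2 difference ran from 2.47 to 3.34 over the 9 fits that left out 1 array. Without Burn-CLP 2 its log2 difference was 2.47 (adjusted p = 0.105, limma). Without Sham-Sham 1 the difference was 2.73 (adjusted p = 0.0808), and without Sham-Sham 2 it was 2.72 (adjusted p = 0.0732). Without any 1 of the other 6 arrays the call was kept.

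**Figure D2:**
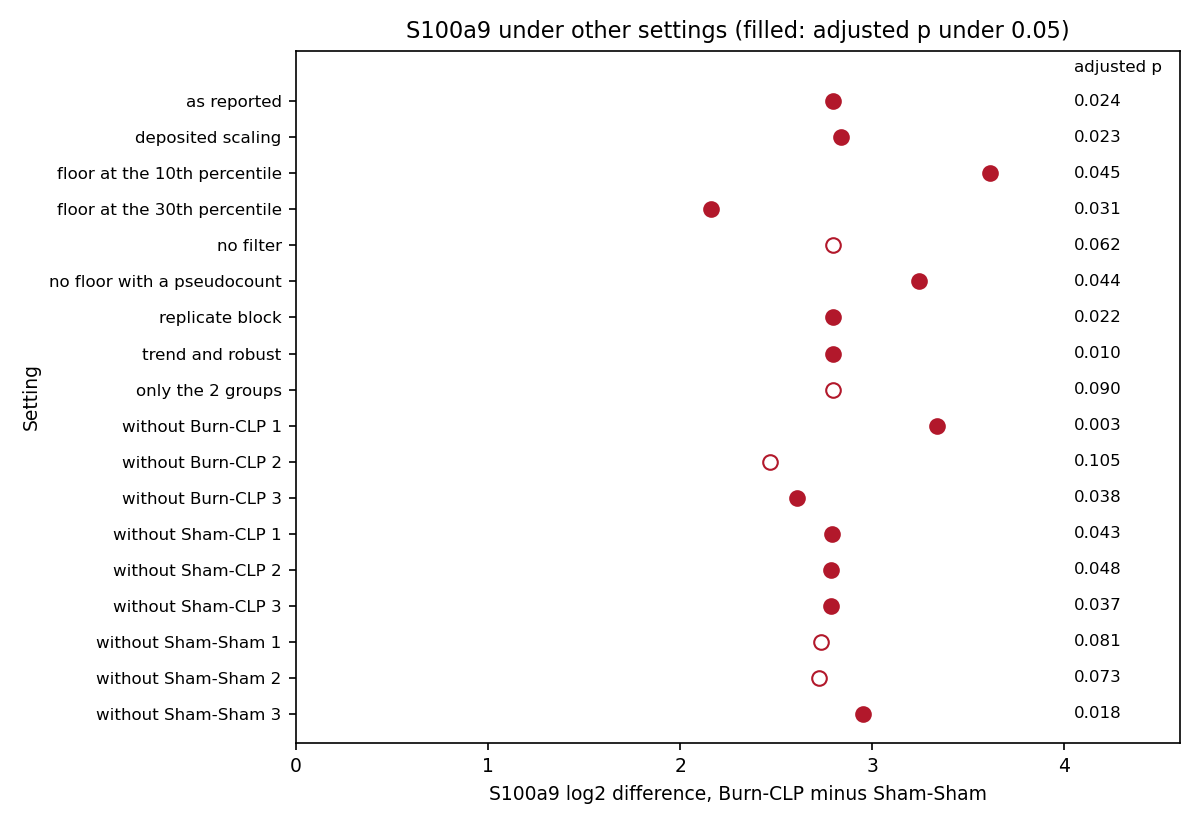
The log2 difference of S100a9, Burn-CLP minus Sham-Sham, under the reported setting and 17 others, 1 row each. Filled points have a limma adjusted p under 0.05 and the adjusted p is printed at the right. All points lie between 2.16 and 3.61, and the open ones are the fits with no filter, with only the 2 groups, and without Burn-CLP 2, Sham-Sham 1 or Sham-Sham 2.

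The promoter of S100a9 is shown because it was the only marker to pass the test; 6 of the 9 listed genes matched the promoter table by symbol. The sequence is the RefSeq window on GRCr8, chr2:178490573-178490872, minus strand, from 250 bases before to 50 bases after the annotated gene start, written 5′ to 3′ along the gene. Capitals mark matches to the motifs searched.
S100a9: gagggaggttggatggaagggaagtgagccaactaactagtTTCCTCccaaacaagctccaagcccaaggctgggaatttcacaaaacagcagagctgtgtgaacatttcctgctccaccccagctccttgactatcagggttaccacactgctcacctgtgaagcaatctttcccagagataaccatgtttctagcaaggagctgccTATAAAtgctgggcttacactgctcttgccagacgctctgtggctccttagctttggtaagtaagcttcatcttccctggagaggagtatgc
Motifs were searched on both strands. GAGGAA, the core bound by PU.1 and other ETS factors, matched once on the opposite strand at position -209 from the start. On the printed strand that match is the first run of capitals. The TATA box, TATAAA, matched once at position -42. TTGCNNAA for C/EBP factors and GGGNNTTCC for NF-kB had no match in these letters. Of 33469 rat promoters of the same length, 27.6% held GAGGAA, 14.2% TATAAA, 10.6% TTGCNNAA and 5.92% GGGNNTTCC. The matches overlapped no other motif and are letters only, not measured binding.

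S100a8, the partner chain of calprotectin (probe set 1368494_at), lies next to S100a9 on the same chromosome of GRCr8 with 0 annotated genes between them. It read 79.3, 274 and 194 on the Burn-CLP arrays. On the Sham-CLP arrays it was below the floor on number 1 and read 102 and 114 on the others. In Sham-Sham it read 95.05 and 69.5 on arrays 1 and 3 and was below the floor on array 2. Burn-CLP 2 and 3 exceeded all other arrays, but Burn-CLP 1 lay within the ranges of both other groups. The difference between Burn-CLP and Sham-Sham was 1.10 ± 0.42 (95% interval 0.16 to 2.05, limma adjusted p = 0.2), and without Burn-CLP 2 it was 0.72. Between Sham-CLP and Sham-Sham it was 0.27 ± 0.42 (adjusted p = 0.815), and between Burn-CLP and Sham-CLP 0.83 ± 0.42 (adjusted p = 0.592).

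The other S100 genes on the array, 9 of 11 listed, gave no call in any comparison (0 of 7 tested, limma). At an unadjusted p under 0.05 there was 1 in Burn-CLP against Sham-Sham, 0 in Sham-CLP against Sham-Sham and 1 in Burn-CLP against Sham-CLP. S100a6, a calcium-binding protein gene of many cell types, differed by 0.70 ± 0.23 between Burn-CLP and Sham-Sham liver (adjusted p = 0.151). S100a11 differed by 0.14 ± 0.19 and S100a10 by 0.24 ± 0.23 in that comparison. The median over the 7 tested S100 genes was 0.24, against 0.01 over all tested probe sets.

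Cybb (probe set 1369181_at) encodes gp91phox, the catalytic subunit of the phagocyte NADPH oxidase. It read 254.9, 324 and 297 on the Burn-CLP arrays, 164, 211 and 316 on the Sham-CLP arrays, and 167, 252.7 and 183 on the Sham-Sham arrays. The Burn-CLP arrays lay just above the Sham-Sham arrays, by the gap between 254.9 and 252.7, and overlapped the Sham-CLP arrays. The difference between Burn-CLP and Sham-Sham was 0.56 ± 0.26 (95% interval -0.04 to 1.15, limma adjusted p = 0.275). Sham-CLP minus Sham-Sham was 0.17 ± 0.26 (adjusted p = 0.818), a sign that turned to -0.03 with the deposited scaling. Burn-CLP minus Sham-CLP was 0.39 ± 0.26 (adjusted p = 0.716).

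Ncf1 (probe set 1387413_at) encodes p47phox, the cytosolic organizer that switches the oxidase on. It read 168, 287 and 188 on the Burn-CLP arrays, 185, 147 and 229 on the Sham-CLP arrays, and 343, 175 and 208 on the Sham-Sham arrays. All 3 groups overlapped, and the highest value came from Sham-Sham 1. The difference between Burn-CLP and Sham-Sham was -0.15 ± 0.30 (95% interval -0.83 to 0.53, limma adjusted p = 0.807), and 0.13 without Sham-Sham 1. Sham-CLP minus Sham-Sham was -0.34 ± 0.30 (adjusted p = 0.664), and Burn-CLP minus Sham-CLP 0.18 ± 0.30 (adjusted p = 0.917).

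Of 5 listed partners of the oxidase 3 were on the array, the membrane subunit gene Cyba and the GTPase genes Rac1 and Rac2, and 0 of 3 passed in any comparison (limma). Rac1, which serves many cell types, averaged 2810 ± 62.6 in Burn-CLP, 2859 ± 179 in Sham-CLP and 3550 ± 42.7 in Sham-Sham (SD, n = 3 each). Both CLP groups lay below all Sham-Sham arrays for Rac1, with differences of -0.34 ± 0.15 (adjusted p = 0.242) for Burn-CLP and -0.31 ± 0.15 (adjusted p = 0.438) for Sham-CLP. Rac2, the form of blood cells, differed by 0.32 ± 0.28 between Burn-CLP and Sham-Sham and by -0.01 ± 0.28 between Sham-CLP and Sham-Sham. At an unadjusted p under 0.05 Rac1 was the 1 gene of the 3 in Burn-CLP against Sham-Sham, with 0 in both other comparisons.

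Alox5ap (probe set 1369672_at) encodes FLAP, the membrane protein that hands arachidonic acid to 5-lipoxygenase at the start of leukotriene synthesis. It read 88.1, 160.2 and 119.7 on the Burn-CLP arrays. The Sham-CLP arrays read 64.5 and 95.4, with array 3 below the floor, and the Sham-Sham arrays 71.0 and 93.05, with array 2 below it. Burn-CLP 2 and 3 exceeded all other arrays, and Burn-CLP 1 lay below the highest array of each other group. The difference between Burn-CLP and Sham-Sham was 0.66 ± 0.27 (95% interval 0.07 to 1.26, limma adjusted p = 0.216). Burn-CLP minus Sham-CLP was 0.70 ± 0.27 (95% interval 0.10 to 1.30, adjusted p = 0.482), and Sham-CLP minus Sham-Sham -0.03 ± 0.27 (adjusted p = 0.97). Without Burn-CLP 2 the first of these was 0.45 and the next 0.48.

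All 8 other listed leukotriene and lipoxygenase genes were on the array and 6 could be tested, with 0 calls in any comparison (limma). At an unadjusted p under 0.05 there were 3 in Burn-CLP against Sham-Sham, 3 in Sham-CLP against Sham-Sham and 0 in Burn-CLP against Sham-CLP. Cysltr1, a receptor gene for cysteinyl leukotrienes, differed by 0.90 ± 0.22 between Burn-CLP and Sham-Sham (adjusted p = 0.0802) and by 0.75 ± 0.22 between Sham-CLP and Sham-Sham (adjusted p = 0.306), with 1 Sham-Sham array at the floor. Alox15, the 12/15-lipoxygenase gene, averaged 538 ± 206 in Burn-CLP, 498.5 ± 57.0 in Sham-CLP and 293 ± 32.6 in Sham-Sham (SD, n = 3 each), with differences from Sham-Sham of 0.81 ± 0.26 (adjusted p = 0.152) and 0.77 ± 0.26 (adjusted p = 0.35). The Cysltr1 and Alox15 signals of both CLP groups lay above all Sham-Sham arrays. Lta4h, whose enzyme makes leukotriene B4, differed by 0.15 ± 0.18 and -0.02 ± 0.18 in the same comparisons. The median over the 6 tested genes was 0.64 for Burn-CLP and 0.76 for Sham-CLP against Sham-Sham. Over all tested probe sets it was 0.01 and 0.00. Differences were positive for 5 and negative for 1 of the 6 in Burn-CLP, beside 50.8% of all probe sets positive. They were positive for 4 and negative for 2 in Sham-CLP, beside 50.5%. The 5-lipoxygenase gene Alox5, named after its values were seen, was above the floor on 2 of 9 arrays and was not tested.

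Itgam (probe set 1388046_at) encodes CD11b, the alpha chain of the integrin Mac-1 that binds fibrinogen, complement and endothelial ICAM-1. Its signal was above the floor only on Burn-CLP 2, at 78.9, and below it on the other 8 arrays, so it was not tested. Of the other listed integrin genes 3 of 8 were on the array and 2 could be tested, with 0 calls and 0 at an unadjusted p under 0.05 in each comparison (limma). Itgb1, the beta-1 chain gene, averaged 1249 ± 221 in Burn-CLP, 1342 ± 95.3 in Sham-CLP and 1326 ± 188 in Sham-Sham (SD, n = 3 each). Itgb7, a beta chain gene of lymphocytes, differed by -0.32 ± 0.23 between Burn-CLP and Sham-Sham (adjusted p = 0.458).

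Mmp8 (probe set 1387735_at) encodes neutrophil collagenase, a protease stored in specific granules. It read 115 and 134 on Burn-CLP 1 and 2 and was below the floor on Burn-CLP 3. The Sham-CLP arrays read 92.3, 121 and 88.8, and the Sham-Sham arrays 177, 122 and 119. The groups overlapped, and the differences from Sham-Sham were -0.46 ± 0.29 for both Burn-CLP (95% interval -1.11 to 0.20, limma adjusted p = 0.404) and Sham-CLP (95% interval -1.11 to 0.20, adjusted p = 0.556). Burn-CLP minus Sham-CLP was -0.00 ± 0.29 (95% interval -0.66 to 0.65), and 0.19 with the deposited scaling. Mmp8 thus lay opposite to S100a9 in sign in both comparisons with Sham-Sham, without passing the test. Leaving out 1 array, its difference between Burn-CLP and Sham-Sham ran from -0.67 to -0.14, the value nearest 0 coming without Burn-CLP 3.

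**Figure D3:**
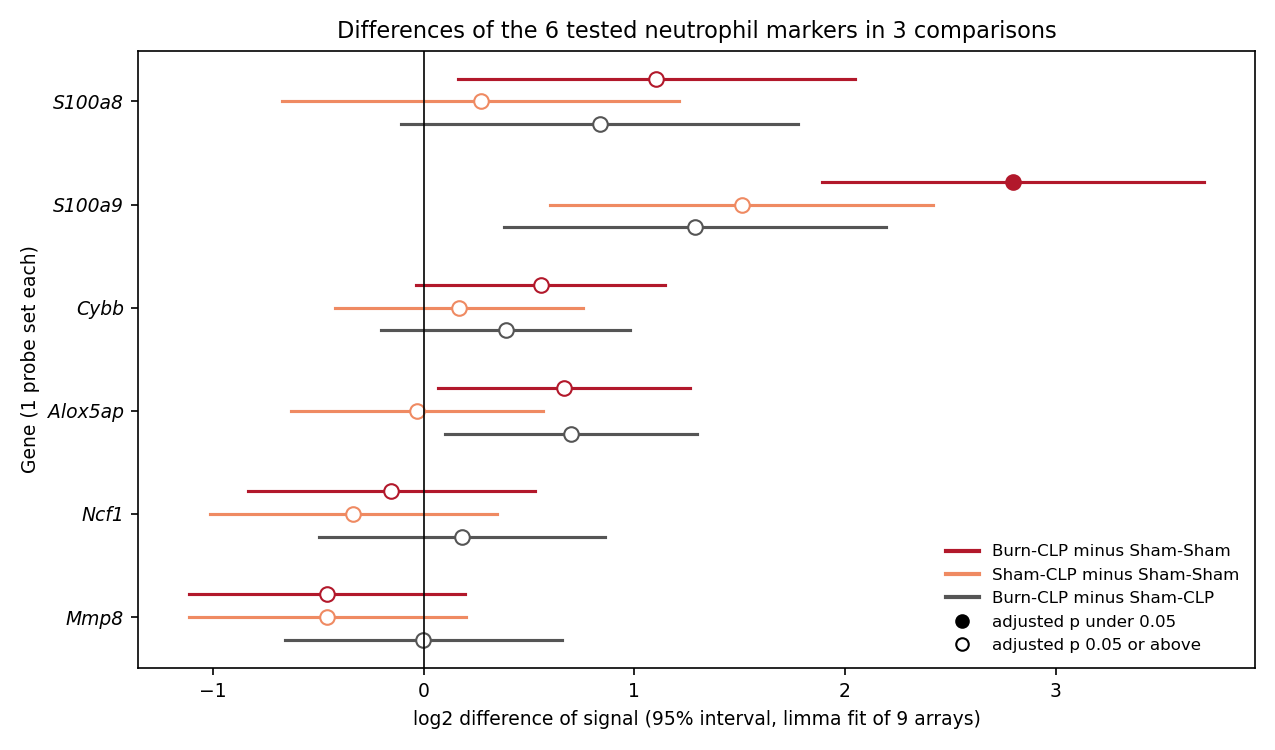
Log2 difference of the 6 tested markers with 95% intervals from the limma fit, in 3 comparisons. Filled points have an adjusted p under 0.05. Only the S100a9 point for Burn-CLP minus Sham-Sham, at 2.80, is filled, and the Cybb, Ncf1 and Mmp8 intervals cross 0 in all 3 comparisons.

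The counts stand beside those of the whole array. In Burn-CLP against Sham-Sham, 1 of 6 tested markers was called, higher, while 0.746% of all tested probe sets were called in either direction and 0.325% were called higher. An unadjusted p under 0.05 was found for 3 markers, S100a8, S100a9 and Alox5ap, beside 19.9% of all probe sets. The groups did not overlap for S100a9 and Cybb, both higher, beside 11.0% of all probe sets that did so in that direction. In Sham-CLP against Sham-Sham 0 of 6 were called (limma), beside 0.0591% of all in either direction and 0.0443% higher, with 1 marker at an unadjusted p under 0.05, S100a9, beside 11.7%. S100a9 was also the 1 marker whose groups did not overlap there, higher, beside 8.10% of all higher and 8.65% lower. In Burn-CLP against Sham-CLP 0 of 6 were called (limma), beside 0.0148%, with S100a9 and Alox5ap at an unadjusted p under 0.05, beside 9.09%, and 0 markers without overlap, beside 9.61% higher and 9.22% lower. S100a8, S100a9 and Alox5ap each lay at the floor on 2 of 9 arrays and reached the test through the other 7.

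Within the Burn-CLP group, array 2 gave the highest signal for all 7 markers, Itgam included. Over all tested probe sets that array was the highest of its group for 33.9%. It was also the highest of all 9 arrays for 5 of the 7 markers, against 16.4% of all probe sets, the exceptions being Ncf1 and Mmp8, for which Sham-Sham 1 was highest. Of 11 measured receptor genes of neutrophils and other phagocytes, 10 were highest within Burn-CLP on array 2. Of 13 macrophage markers, 6 were highest there on array 2 and 6 on array 3. Of the 10 other granule genes described below, 3 were highest there on array 2 and 5 on array 3. Np4 among those 3 and Mmp9 among those 5 were below the floor on all 3 Burn-CLP arrays. In the Sham-CLP group, array 3 was the highest for 5 of the 7 markers and for 9 of the 11 receptor genes, beside 35.6% of all probe sets, but Itgam among those 5 and Ptafr among those 9 were below the floor on all 3 Sham-CLP arrays, where their order has no meaning. These shares are a description, and what sets Burn-CLP 2 apart was not tested.

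Genes of neutrophil granules and of inhibitors of their proteases, here called other granule genes, gave mixed values. Which liver cells gave their signal was not tested. Of 19 listed, 10 had a probe set, 7 could be tested and 0 were called in any comparison (limma), with 3, 1 and 2 at an unadjusted p under 0.05 in Burn-CLP against Sham-Sham, Sham-CLP against Sham-Sham and Burn-CLP against Sham-CLP. Serpinb1a, an inhibitor gene of neutrophil serine proteases, averaged 551 ± 209 in Burn-CLP, 257 ± 54.8 in Sham-CLP and 145 ± 96.7 in Sham-Sham (SD, n = 3 each). Its Burn-CLP arrays lay above all arrays of both other groups, with a difference from Sham-Sham of 2.08 ± 0.45 (adjusted p = 0.0681) and from Sham-CLP of 1.05 ± 0.45 (adjusted p = 0.536). Slpi, a leukocyte protease inhibitor gene that epithelia also use, averaged 1027 ± 227 in Burn-CLP, 559 ± 133 in Sham-CLP and 446 ± 181 in Sham-Sham. Its Burn-CLP arrays too lay above the other groups, by 1.28 ± 0.34 against Sham-Sham (adjusted p = 0.104) and 0.88 ± 0.34 against Sham-CLP (adjusted p = 0.493). Lyz2, the lysozyme gene shared with macrophages, differed by 0.73 ± 0.28 between Burn-CLP and Sham-Sham (adjusted p = 0.2). The gelatinase B gene Mmp9, named after its values were seen, was above the floor on 1 of 9 arrays, and the neutrophil defensin genes Defa5, Np4 and RatNP-3b, named likewise, on 1, 0 and 3 of 9.

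Receptor genes that guide neutrophils gave no call. Of 19 listed, 11 had a probe set and 10 could be tested, with 0 calls in any comparison (limma) and 2, 3 and 0 at an unadjusted p under 0.05 in the same order of comparisons. Cd44, an adhesion receptor gene for hyaluronan that holds neutrophils in liver sinusoids in mice, differed by 1.16 ± 0.37 between Burn-CLP and Sham-Sham (adjusted p = 0.15) with 1 Sham-Sham array at the floor. Cd53, a leukocyte tetraspanin gene, differed by 0.41 ± 0.20 between Burn-CLP and Sham-Sham and by 0.53 ± 0.20 between Sham-CLP and Sham-Sham (adjusted p = 0.284 and 0.382). Fcgr2b, an inhibitory Fc receptor gene, differed by 0.02 ± 0.22 and -0.02 ± 0.22. The median over the 10 tested genes was 0.04 for Burn-CLP and 0.06 for Sham-CLP against Sham-Sham.

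Signals that draw neutrophils into tissue gave no call either. Of 23 listed genes 22 were on the array and 20 could be tested, with 0 calls in any comparison (limma) and 3, 2 and 0 at an unadjusted p under 0.05. Pf4, a platelet chemokine gene, averaged 556 ± 46.2 in Burn-CLP, 431 ± 115 in Sham-CLP and 252 ± 75.5 in Sham-Sham (SD, n = 3 each). Both CLP groups lay above all Sham-Sham arrays for Pf4, with differences of 1.19 ± 0.28 (adjusted p = 0.0772) and 0.79 ± 0.28 (adjusted p = 0.361). Icam1, the endothelial partner of Mac-1, differed by 0.95 ± 0.48 between Burn-CLP and Sham-Sham and by 0.70 ± 0.48 between Sham-CLP and Sham-Sham (adjusted p = 0.303 and 0.579). Tnf, the gene of the early inflammatory cytokine, differed by -0.64 ± 0.21 between Burn-CLP and Sham-Sham (adjusted p = 0.158). Between Sham-CLP and Sham-Sham the Tnf difference was -0.86 ± 0.21 (adjusted p = 0.272). Each Sham-CLP array was set to the floor, so that last difference is a bound, with no spread measured in Sham-CLP. C3, the central complement gene, which hepatocytes make, read 32863 on 6 of 9 arrays, since at the top of the quantile-normalized range the rank fixes the value, so nothing is read from its differences.

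Lcn2, a granule protein gene that hepatocytes share, rose in both CLP groups. It read 14048, 17438 and 19319 in Burn-CLP, 19319, 20703 and 11853 in Sham-CLP, and 618, 637 and 752 in Sham-Sham. Its differences from Sham-Sham were 4.65 ± 0.24 for Burn-CLP (limma adjusted p = 6.84e-05) and 4.66 ± 0.24 for Sham-CLP (limma adjusted p = 6.83e-05), and neither group overlapped Sham-Sham. The difference between Burn-CLP and Sham-CLP was -0.00 ± 0.24 (95% interval -0.54 to 0.54, limma adjusted p = 1). S100a9 had its interval for the same comparison between 0.38 and 2.20. Whether the 2 genes differ in this was not tested.

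Most macrophage markers had positive differences, as S100a9 did. Of 21 listed, 13 were on the array, all tested, and 12 to 13 of them were above the floor in Burn-CLP, 13 in Sham-CLP and 11 to 13 in Sham-Sham, so none of the 13 was absent from the groups. Their summed signal was 15499 to 24295 in Burn-CLP, 14382 to 18245 in Sham-CLP and 13776 to 15430 in Sham-Sham. The median difference was 0.38 for Burn-CLP and 0.23 for Sham-CLP against Sham-Sham, with 11 of 13 positive in both, beside 50.8% and 50.5% of all probe sets, and 0.14 for Burn-CLP against Sham-CLP, with 9 of 13 positive beside 52.4%. There were 0 calls in any comparison (limma), with 3, 0 and 2 at an unadjusted p under 0.05. Ctss, the cathepsin S gene of antigen-presenting cells, differed by 0.99 ± 0.25 between Burn-CLP and Sham-Sham (adjusted p = 0.0871). Csf1r, the receptor gene for the macrophage growth factor, differed by 1.02 ± 0.32 (adjusted p = 0.145) there and Cd14, a lipopolysaccharide co-receptor gene, by 0.65 ± 0.30 (adjusted p = 0.264). Mpeg1, a pore-forming protein gene of macrophages, differed by 0.42 ± 0.32. The part of macrophages in the S100a9 result was not tested.

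**Figure D4:**
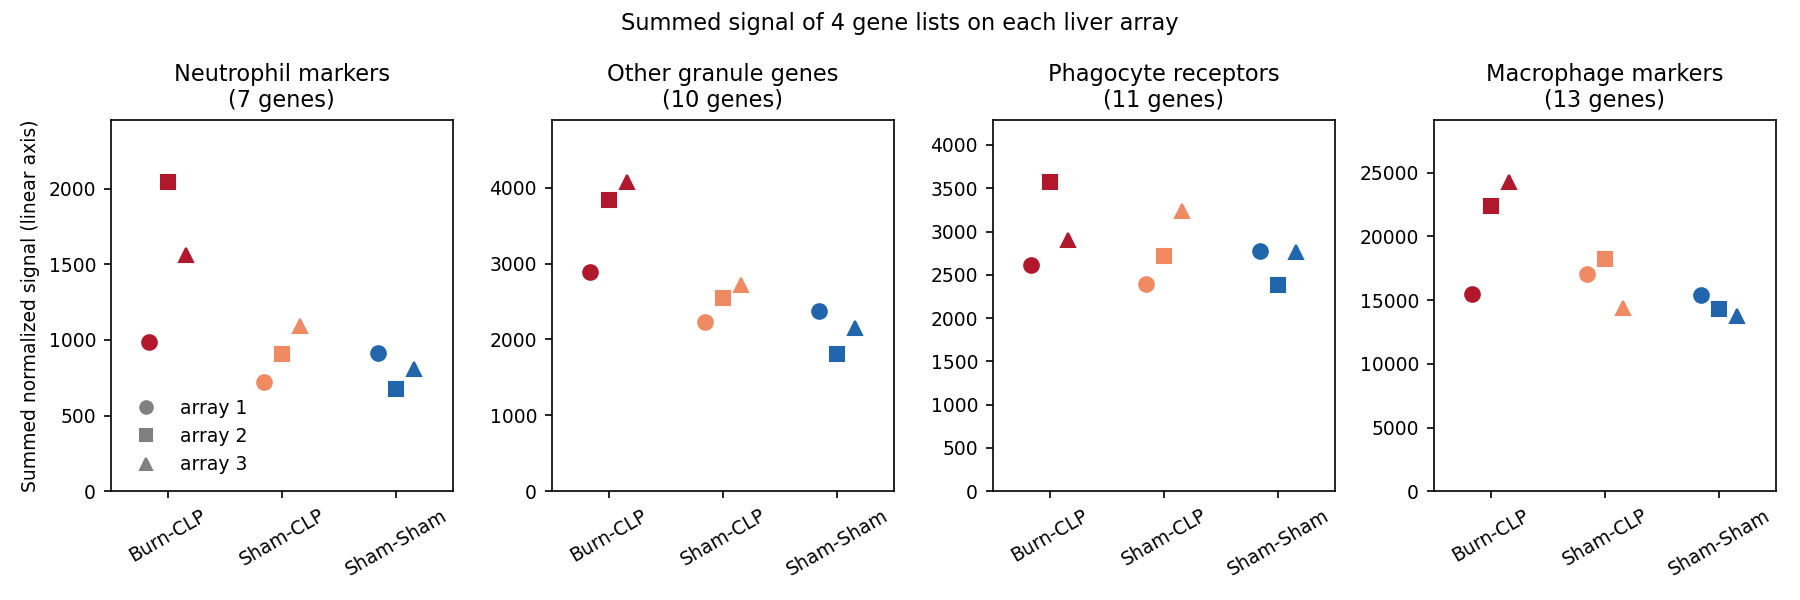
Summed normalized signal of 4 gene lists on each array, on linear axes from 0, with Burn-CLP, Sham-CLP and Sham-Sham from left to right and the marker shape giving the array number. The 7 neutrophil markers sum to 985 to 2047 in Burn-CLP, 719 to 1092 in Sham-CLP and 676 to 915 in Sham-Sham, and the macrophage markers are also highest on Burn-CLP arrays 2 and 3.

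Summed over the 7 neutrophil markers the signal was 985, 2047 and 1564 on Burn-CLP arrays 1 to 3, and ran from 719 to 1092 in Sham-CLP and from 676 to 915 in Sham-Sham. The sum is weighted to the brightest probe sets. The 10 other granule genes summed to 2895 to 4079 in Burn-CLP, 2225 to 2716 in Sham-CLP and 1814 to 2373 in Sham-Sham. The Burn-CLP arrays thus lay above all others in this sum, in which Lyz2, Slpi and Serpinb1a were the brightest. Over the 7 tested of these genes the median difference from Sham-Sham was 0.07 for Burn-CLP and 0.39 for Sham-CLP. In each of these comparisons 4 were positive and 3 negative, beside 50.8% and 50.5% of all probe sets positive. Receptor genes summed to 2613 to 3578 in Burn-CLP, 2391 to 3236 in Sham-CLP and 2384 to 2779 in Sham-Sham, and the groups overlapped.

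Markers of other blood and liver cells gave 0 calls in all 3 comparisons (limma). Lymphocyte markers had a median difference of -0.18 for Burn-CLP and -0.24 for Sham-CLP against Sham-Sham over 16 tested genes, with 0, 6 and 2 at an unadjusted p under 0.05. Their values included 0.02 ± 0.20 for the helper T cell gene Cd4 and 0.16 ± 0.21 for the kinase gene Lck in Burn-CLP against Sham-Sham, and -0.54 ± 0.19 for Cd37 and -0.62 ± 0.20 for Klrd1 in Sham-CLP against Sham-Sham, with 1 and 2 Sham-CLP arrays at the floor. Red cell genes summed to 10026 to 12071 in Burn-CLP, 11609 to 12774 in Sham-CLP and 12886 to 16067 in Sham-Sham, with the Sham-Sham arrays above all others, and Hbb and Hba-a3 differed by -0.42 ± 0.16 and -0.61 ± 0.23 between Burn-CLP and Sham-Sham. Of 4 red cell genes 2, 0 and 0 were at an unadjusted p under 0.05. Over 5 endothelial genes, with 1, 1 and 0 at an unadjusted p under 0.05, Kdr differed by -0.76 ± 0.28, Lyve1 by 0.62 ± 0.34 and Pecam1 by 0.50 ± 0.27 between Burn-CLP and Sham-Sham. Over 11 hepatocyte genes, with 2, 1 and 0, the transaminase gene Tat differed by 1.66 ± 0.52, the urea cycle gene Cps1 by 0.48 ± 0.17, and the plasma protein gene Ahsg by -0.16 ± 0.14. The albumin gene Alb read 35699 on 6 of 9 arrays, again a value fixed by its rank, and nothing is read from its differences.

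Likeness of pattern was measured as Pearson's r of log2 signal over the 9 arrays, which share their groups and normalization, among genes above the floor on all 9 arrays. The 5 genes most like S100a9, out of 8604 probe sets compared, were the macrophage folate receptor gene Folr2 (r = 0.960), the lipopolysaccharide binding protein gene Lbp (0.958), the collagen gene Col18a1 (0.951), Plac8, a gene of myeloid and lymphoid cells (0.944), and Sdhaf1, an assembly factor gene of succinate dehydrogenase (0.944). In Burn-CLP against Sham-Sham, Lbp rose by 1.47 ± 0.22 (adjusted p = 0.025) and Sdhaf1 by 1.04 ± 0.16 (adjusted p = 0.0324), whereas Folr2 differed by 0.89 ± 0.22 (adjusted p = 0.0858), Plac8 by 1.13 ± 0.27 (adjusted p = 0.0779) and Col18a1 by 0.34 ± 0.15 (adjusted p = 0.259). These 5 genes were picked for likeness to S100a9 on the same arrays, so their differences are not separate evidence. For Cybb the 5 were Alpk3, Bet1l, Ranbp2, Apbb1ip and Serping1, with r between 0.872 and 0.917.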

How the data were processed

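Total RNA of rat whole liver was measured on 9 oligonucleotide arrays of 1 colour, and the deposited intensity values, 1 per probe set and array on a linear scale, were used as given. The software and scaling behind them are not given in the sources used here. Each array had a 2% trimmed mean of 500.14 to 500.17. Groups came from the sample titles. Arrays were quantile normalized, floored at the 20th percentile (64.3) and log2 transformed; the 57 control probe sets were not tested. Symbols came from the platform annotation, updated through the Entrez identifier to GRCr8 RefSeq (12748 probe sets), with 2 through an accession and 33 as supplied; 12783 probe sets had 1 symbol, 312 several and 2771 none, and none with several was named. No probe positions were used.

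The 3 comparisons were fitted with limma 3.58.1 (lmFit, eBayes) in R 4.3.3 on all 9 arrays. The fit and the adjustment of p-values were tested on simulated log2 signals, which left normalization, floor and filter untested. An exact permutation test of 3 arrays against 3 cannot go below 0.1 and was not used. Arrays carry no read depth, so their number limits the precision. The members and lists were chosen with earlier results of these data known. All members are named; of each other list, called genes, the 2 brightest and the 2 with the smallest F test p, with the brightest probe set standing for a gene; and the 5 genes most like S100a9 and Cybb. Alternatives were the deposited scaling, other floors and filters, a pseudocount, 2-group fits, a trended variance, each array left out and the replicate number as a block. Correlations of the deviations from group means ran from -0.0261 to 0.0806 for same-numbered arrays, 0 of 9 pairs over 0.1. For different-numbered arrays they ran from -0.0725 to 0.0366. The same-numbered values 0.0394, 0.045, 0.0561, 0.0606, 0.077 and 0.0806 lay above that range, and 0.0144, -0.00963 and -0.0261 lay within it.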

Additional observations from a re-analysis of the deposited data

How the results depend on the processing

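Array number limits every statement, and signals near the floor limit those on S100a8, S100a9, Alox5ap, Mmp8 and Itgam. The number of probe sets called between Burn-CLP and Sham-Sham was 101. It was 53 with a floor at the 10th percentile, 212 with one at the 30th, 56 with a pseudocount of 16 and no floor, 317 with a trended robust variance, 13 with only the 2 groups fitted, 59 with the replicate block, and 19 to 645 leaving out 1 array. The count of called markers was 1, and 0 with no filter, with only the 2 groups, with all 9 arrays required above the floor (which leaves S100a9 untested), and 0 to 1 leaving out 1 array. S100a9 had an adjusted p of 0.0621 with no filter and 0.0896 with only the 2 groups. Between Sham-CLP and Sham-Sham 8 probe sets were called, 4 with the deposited scaling, 4 with the replicate block and 4 to 347 leaving out 1 array. Between Burn-CLP and Sham-CLP it was 2, with 1 under the deposited scaling, 4 with the 10th and 0 with the 30th percentile floor, 4 with no filter, 0 with all 9 arrays above the floor, 1 with the pseudocount, 0 with the replicate block, 10 with the trended variance, 0 with only the 2 groups and 0 to 36 leaving out 1 array. In both of these comparisons the count of called markers was 0 throughout. The cause of these shifts was not tested. The replicate block changed no call of a marker. The labels do not say whether the replicate numbers link the arrays, and that was not settled here.

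Signs turned for differences near 0 that were never called. Sham-CLP minus Sham-Sham turned to -0.031 for Cybb with the deposited scaling, and leaving out 1 array it ran from -0.0877 to 0.38 for Cybb and from -0.22 to 0.12 for Alox5ap. Burn-CLP minus Sham-Sham ran from -0.38 to 0.13 for Ncf1. Burn-CLP minus Sham-CLP ran from -0.0487 to 0.34 for Ncf1 and from -0.22 to 0.32 for Mmp8, which was 0.19 with the deposited scaling and 0.0627 with the 30th percentile floor. Each gene has 1 probe set, so using 1 probe set a gene changed nothing.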
